A study of Mus musculus with 3 samples.

Results

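Type I interferon-stimulated genes are 38 genes chosen by symbol, from Ifi44 and Irf7 to Herc6 and Samd9l. The members, their roles and the other lists used here were chosen with earlier results of these data known. Shares over all genes given beside these lists describe the lists and do not test them. All 38 were found among the 49492 gene entries of the liver RNA sequencing data, and 0 were dropped. The study's title concerns insulin resistance brought about by zinc oxide (ZnO) nanoparticles, which were given by mouth as an ultrasonically dispersed suspension at 25 mg/kg body weight per day. The 3 groups were CD-1 mice, an outbred strain, given ZnO nanoparticles for 12 weeks, CD-1 mice given them for 8 weeks, and CD-1 control mice given phosphate-buffered saline (PBS) in equal volume. Each group is 1 liver library. The sources used here give no sex, age or number of animals per library, and no time of sampling for the control.

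Type I interferons are secreted when cells detect viral or displaced nucleic acids. They bind the receptor Ifnar1 and Ifnar2, whose kinases Jak1 and Tyk2 phosphorylate Stat2. Stat2 joins Irf9 in the complex ISGF3, which binds the interferon-stimulated response element (ISRE) in promoters of the genes described here. In liver, both hepatocytes and the resident macrophages, Kupffer cells, respond to interferon.

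With 1 library per group there is no spread between animals, and no p-value is given. Levels are CPM, counts over the scaled library size, and RPKM, the same divided by exon length in kb. A log2 ratio is that of CPM + 1 between 2 libraries, which understates low genes. The rule for calling a gene was a 2-fold difference on that scale. A fold is the ratio of scaled counts with nothing added, and its exact 95% interval covers counting error only. An interval above 0 is one whose log2 is above 0, that is, a fold above 1. A count is read against the same call over the 14585 genes with at least 1 CPM in a library. All 38 members were among these. For 32 of them every library reached 1 CPM, and for Isg15, Oas1a, Oas2, Oas3, Oasl1 and Mx1 it was 1 or 2 libraries, so that these 6 entered through the libraries in which they were higher.

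Library totals ran from 13263211 to 14258770 counts, where 3 counts correspond to between 0.209 and 0.227 CPM. The hepatocyte marker list summed to between 58278 and 66581 CPM, so the defining genes of the labelled tissue were present. The 8-week library stood apart in skeletal muscle genes: 10 such markers summed to 1.59 CPM at 12 weeks, 201 CPM at 8 weeks and 2.36 CPM in the control. Its part in the members' 8-week values was not tested. Results of the 8-week library are therefore given beside the 12-week values, which do not use it. Markers of Kupffer cells and macrophages summed to 347 CPM at 12 weeks, 449 CPM at 8 weeks and 112 CPM in the control. In a whole liver, more cells of a type and more RNA per cell cannot be told apart.

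At 8 weeks, 15 of the 38 members were at least 2-fold higher than in the control (4.15% of all genes) and 0 were lower (2.10% of all genes). At 12 weeks 4 were higher (3.11% of all genes) and 0 lower (1.34%). Their promoter sequences come first. RefSeq promoter windows on GRCm38.p6, running from 250 bases before to 50 bases after the annotated start, matched 28 members. The set of windows used here held none for Dhx58, Ifi27, Mx1, Mx2, Oas2, Parp14, Parp9, Rtp4, Usp18 and Zbp1. The core of the ISRE was searched on both strands as the letters GAAA, any 2 bases and GAAA again. This GAAA pair stood in 13 of these 28 (46.4%), against 3.99% of the 27025 genes with a window. Per window, the shares were 45.2% of 31 member windows and 3.44% of all 32851. The longer form, a GAAA pair followed by CT, which contains the first, stood in 7 members (25%) and 0.303% of all genes. The letters TTCNNNGAA, the core of the interferon gamma-activated sequence (GAS), stood in 6 members (21.4%) and 9.55% of all genes. A match is a run of letters and not a shown binding site.

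The 7 windows printed are those of the members that hold a GAAA pair and had the highest log2 ratios at 8 weeks against control. Their matches differ in number, strand and distance from the start. Each runs 5′ to 3′ on the gene's strand from 250 bases before to 30 bases after the start, and capitals mark each GAAA pair or its reverse complement. Overlapping matches run together in capitals, as in Isg15 (3 matches) and Oas1a (2).
Ifitm3, chr7:141010715-141010994, minus strand: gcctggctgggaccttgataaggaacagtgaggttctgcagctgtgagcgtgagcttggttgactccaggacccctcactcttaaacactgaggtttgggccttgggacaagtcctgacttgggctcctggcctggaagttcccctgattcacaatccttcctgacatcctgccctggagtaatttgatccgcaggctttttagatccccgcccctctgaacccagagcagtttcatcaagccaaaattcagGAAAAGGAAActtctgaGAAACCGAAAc
Trim30a, chr7:104465164-104465443, minus strand: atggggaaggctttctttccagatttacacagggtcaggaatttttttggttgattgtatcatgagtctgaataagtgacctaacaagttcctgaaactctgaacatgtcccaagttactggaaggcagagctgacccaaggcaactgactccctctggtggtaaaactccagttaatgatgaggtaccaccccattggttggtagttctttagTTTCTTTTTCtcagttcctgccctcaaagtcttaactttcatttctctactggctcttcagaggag
Oas3, chr5:120777630-120777909, minus strand: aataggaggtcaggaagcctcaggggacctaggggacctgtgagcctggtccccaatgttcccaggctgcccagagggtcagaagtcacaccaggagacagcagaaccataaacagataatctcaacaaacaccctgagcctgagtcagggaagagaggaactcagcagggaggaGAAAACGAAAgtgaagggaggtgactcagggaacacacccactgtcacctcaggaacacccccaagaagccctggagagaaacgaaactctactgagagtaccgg
Ifit3, chr19:34583279-34583558, plus strand: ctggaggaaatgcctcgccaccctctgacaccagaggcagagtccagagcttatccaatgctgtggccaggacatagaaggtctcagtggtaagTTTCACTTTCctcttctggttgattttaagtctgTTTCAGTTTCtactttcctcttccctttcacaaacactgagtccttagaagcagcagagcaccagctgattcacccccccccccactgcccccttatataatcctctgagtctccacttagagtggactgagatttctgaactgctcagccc
Ifit1, chr19:34640639-34640918, plus strand: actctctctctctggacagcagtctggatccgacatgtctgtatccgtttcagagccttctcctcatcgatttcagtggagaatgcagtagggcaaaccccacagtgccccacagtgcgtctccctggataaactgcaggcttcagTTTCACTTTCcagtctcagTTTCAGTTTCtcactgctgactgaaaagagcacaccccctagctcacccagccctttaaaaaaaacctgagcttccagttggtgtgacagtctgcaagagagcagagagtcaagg
Oas1a, chr5:120907496-120907775, minus strand: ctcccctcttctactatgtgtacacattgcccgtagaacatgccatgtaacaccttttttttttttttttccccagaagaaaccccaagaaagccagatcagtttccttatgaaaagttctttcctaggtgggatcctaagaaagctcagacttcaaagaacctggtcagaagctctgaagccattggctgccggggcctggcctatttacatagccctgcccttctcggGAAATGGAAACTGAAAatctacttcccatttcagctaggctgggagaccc
Isg15, chr4:156200789-156201068, minus strand: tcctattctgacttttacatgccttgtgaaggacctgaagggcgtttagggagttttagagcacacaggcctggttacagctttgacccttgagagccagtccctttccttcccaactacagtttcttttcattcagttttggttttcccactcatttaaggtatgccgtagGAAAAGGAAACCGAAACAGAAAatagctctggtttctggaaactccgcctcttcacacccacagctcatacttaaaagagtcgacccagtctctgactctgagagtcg

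For each of the 13 members, 1 start site and its nearest match were taken. In 9 of them the match lay before the start site, beginning between 222 and 14 bases from it, with a median of 85. The matches of Ifitm3, Ddx58, Ifih1 and Eif2ak2 began after it, as did that at a second start of Trim30a. The first 20 bases from the start opened a GENCODE transcript in 11 of 31 member windows, so distances are approximate. The 13 members with the letters had a median log2 ratio of 0.59 at 12 weeks and 0.96 at 8 weeks against control, and the 15 without them 0.57 and 0.74. The 7 with the longer letters had medians of 0.85 at 12 weeks and 1.09 at 8 weeks, and the 21 without them 0.57 and 0.74. The highest 8-week log2 ratio was 1.47 among the 13 with a GAAA pair and 2.55 among the 15 without one. These medians describe 2 comparisons that share 1 control library, and no test sets them apart.

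**Figure D1:**
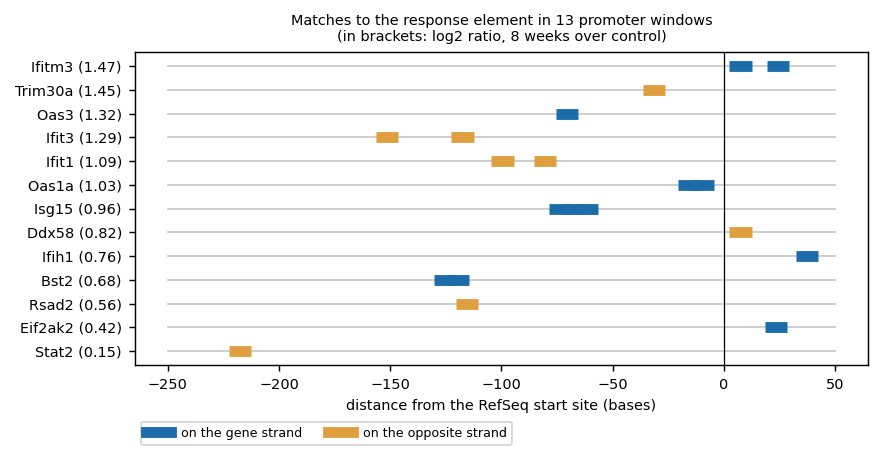
Position of GAAA pairs (GAAA, any 2 bases, GAAA) in the promoter windows of 13 members, as distance in bases from the RefSeq start site, with blue for the gene's strand and orange for the opposite strand. Members run down by log2 ratio at 8 weeks against control, from Ifitm3 (1.47) to Stat2 (0.15). With 1 start site drawn per member, the matches of 9 members lie before the start.

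The first comparison set the liver after 8 weeks of ZnO nanoparticles against the control. Of the 38 members, 15 (39.5%) were called higher, where 4.15% of all genes were called higher. None was called lower, where 2.10% of all genes were. The median log2 ratio was 0.77 over all 38 members, against -0.02 over all genes. The count interval lay wholly above 0 for 33 members (86.8%; 23.6% of all genes) and wholly below 0 for 0 (24.2% of all genes). The log2 ratio was above 0 for 36 members (48.4% of all genes) and below 0 for Mx2 and Cmpk2, also with 3 other scalings of the libraries. At 1.5-fold 24 members were higher (10.6% of all genes), and at 3-fold 4 were (1.54%).

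The second comparison set 12 weeks of treatment against the same control. There 4 of 38 members (10.5%) were called higher, against 3.11% of all genes, and 0 were called lower, against 1.34%. These were Parp14, Samd9l, Ifit2 and Ifitm3, which were also called at 8 weeks. The median log2 ratio was 0.53, against -0.01 over all genes. The count interval lay wholly above 0 for 23 members (60.5%; 21.0% of all genes) and wholly below 0 for 0 (22.4%). The number called depended on the added CPM: with 0.5 in place of 1 it was 10, against 4.39% of all genes. It was 17 at 1.5-fold (9.28% of all genes) and 0 at 3-fold (0.905%). The log2 ratio was above 0 for 36 members (48.9% of all genes) and below 0 for Cmpk2 and Lgals3bp. Summed over the 38 members, the level was 826 CPM at 12 weeks, 867 CPM at 8 weeks and 560 CPM in the control. These sums are led by members with many counts, such as Trim25 and Ifitm3.

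**Figure D2:**
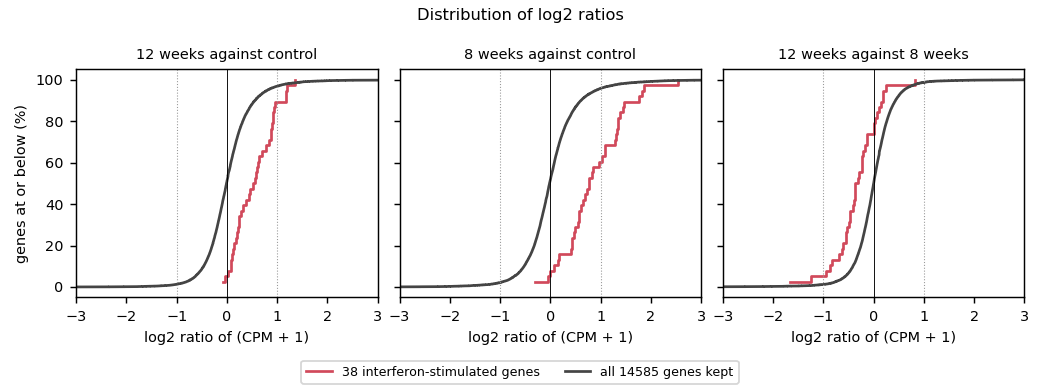
Cumulative share of genes (percent) by log2 ratio of CPM + 1 for the 38 members and for all 14585 genes kept, in 3 comparisons. Dotted lines mark 2-fold. The members' curve lies right of that of all genes over most of the range against the control, with medians of 0.53 at 12 weeks and 0.77 at 8 weeks, and left of it between 12 and 8 weeks, with a median of -0.34.

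Among the nucleic acid sensors, 1 of 4 was called higher at 8 weeks (4.15% of all genes) and 0 at 12 weeks (3.11%). With so few members per role, such counts do not set the roles apart. Zbp1, which binds Z-form nucleic acid and can start cell death, had 3.10 CPM in the 12-week library, 3.63 CPM in the 8-week library and 1.18 CPM in the control. Both treated libraries lay above the control, by 2.63-fold at 12 weeks (interval 1.44 to 5.01) and 3.08-fold at 8 weeks (1.73 to 5.78). Ddx58 encodes RIG-I, a sensor of viral RNA ends, and had 12.5 CPM in the 12-week library, 18.1 CPM in the 8-week library and 9.80 CPM in the control. Ifih1, which encodes MDA5, a sensor of long double-stranded RNA, had 21.1 CPM in the 12-week library, 23.2 CPM in the 8-week library and 13.3 CPM in the control. Neither was called, with log2 ratios of 0.33 at 12 weeks and 0.82 at 8 weeks for Ddx58 and 0.63 and 0.76 for Ifih1. The count intervals of both lay above 0 at each time. Dhx58 (LGP2), a helicase that tunes these sensors, had 3.32, 4.05 and 2.58 CPM at 12 weeks, at 8 weeks and in the control, and its interval at 12 weeks spanned 0.

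Of the 3 transcription factors, Irf7 was called higher at 8 weeks (4.15% of all genes) and none at 12 weeks (3.11%). Irf7, the factor that amplifies interferon alpha production, had 10.9 CPM in the 12-week library, 27.1 CPM in the 8-week library and 6.71 CPM in the control. The 8-week library was 4.05-fold above the control (interval 3.21 to 5.14) and the 12-week library 1.62-fold (1.24 to 2.13). The exons of Irf7 share 45 bases with Phrf1 on the other strand, which had 408, 393 and 362 counts at 12 weeks, at 8 weeks and in the control. Irf9, the DNA-binding subunit of ISGF3, had 26.1 CPM in the 12-week library, 25.9 CPM in the 8-week library and 17.2 CPM in the control. The treated libraries lay close together and 1.51-fold (12 weeks) and 1.501-fold (8 weeks) above the control. Stat2, its signalling subunit, had 77.5 CPM in the 12-week library, 76.1 CPM in the 8-week library and 68.6 CPM in the control. Its ratio was within 1.13-fold of the control at 12 weeks and 1.11-fold at 8 weeks.

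In the ISG15 system and the tripartite motif proteins, 2 of 5 members were called at 8 weeks and 0 at 12 weeks. Over all genes, 4.15% were called higher at 8 weeks and 3.11% at 12 weeks. Isg15, the ubiquitin-like modifier, had 20 counts at 12 weeks, 32 at 8 weeks and 9 in the control. It stood 2.28-fold (interval 0.991 to 5.68) and 3.37-fold (1.57 to 8.02) above the control at 12 and 8 weeks. It was not called at these low counts, and its 12-week interval reached below the control. Usp18, the protease that removes Isg15 and dampens receptor signalling, had 2.42 CPM in the 12-week library, 5.23 CPM in the 8-week library and 1.47 CPM in the control. It was called at 8 weeks (3.55-fold, interval 2.15 to 6.14), and the 12-week interval reached below the control. Herc6, the main ligase for Isg15 in mouse, had 17.6 CPM in the 12-week library, 15.4 CPM in the 8-week library and 8.62 CPM in the control. The treated libraries were alike, at 2.04-fold at 12 weeks and 1.79-fold at 8 weeks, under the threshold once 1 CPM is added.

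Trim30a, a mouse restrainer of Toll-like receptor signalling, had 5.44 CPM in the 12-week library, 8.79 CPM in the 8-week library and 2.58 CPM in the control. It was called at 8 weeks, with a log2 ratio of 0.85 at 12 weeks and 1.45 at 8 weeks. Trim25, a ubiquitin ligase that acts on RIG-I, had 170.0 CPM in the 12-week library, 95.1 CPM in the 8-week library and 90.9 CPM in the control. The 12-week library alone was high: it stood 1.87-fold above the control (interval 1.74 to 2.01), while the 8-week ratio was 1.05 (0.969 to 1.13). Against 8 weeks, its log2 ratio at 12 weeks was 0.83, the highest of the 38.

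**Figure D3:**
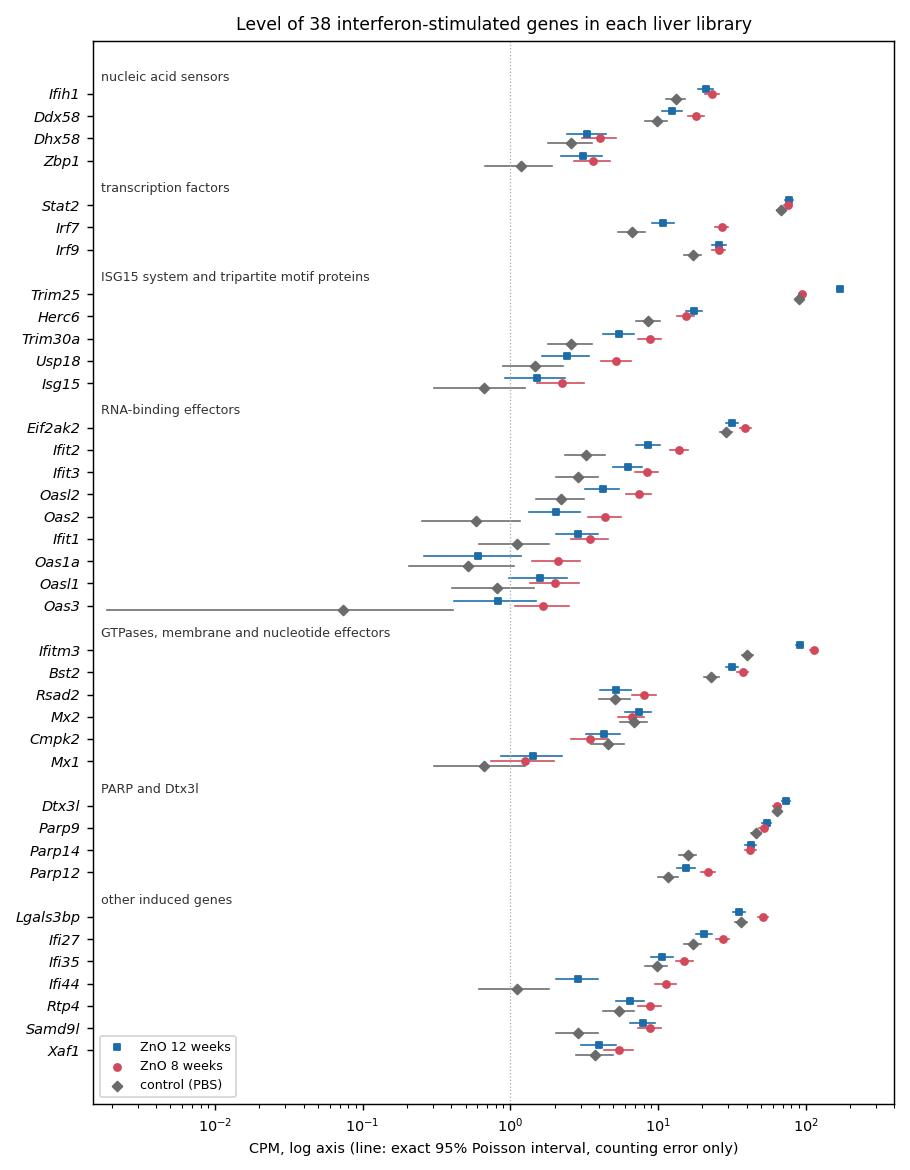
Level of each of the 38 members in CPM (log axis), by role, in the 12-week, 8-week and control libraries, with exact Poisson 95% intervals for counting error. The 8-week library is the highest for 28 members, the 12-week library for 9 and the control for 1, and the control is the lowest for 35.

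The RNA-binding effectors held 7 of the 15 members called at 8 weeks, out of 9, and 1 of the 4 at 12 weeks. The shares called higher over all genes were 4.15% at 8 weeks and 3.11% at 12 weeks. The Ifit proteins are an antiviral family, of which Ifit1 binds the ends of foreign RNA. Ifit2 had 8.61 CPM in the 12-week library, 13.96 CPM in the 8-week library and 3.24 CPM in the control. It was 2.65-fold (interval 1.86 to 3.85) and 4.30-fold (3.09 to 6.11) above the control at 12 and 8 weeks. Ifit3 had 6.27, 8.45 and 2.87 CPM at 12 weeks, at 8 weeks and in the control, and Ifit1 had 2.87, 3.49 and 1.11 CPM at 12 weeks, at 8 weeks and in the control. Both were called at 8 weeks and not at 12 weeks (log2 ratios 0.91 and 0.88). Ifit3 has a near-identical copy, Ifit3b, which had 34 counts at 12 weeks, 55 at 8 weeks and 12 in the control, so the split of reads between them is uncertain.

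The Oas enzymes make oligoadenylates that activate the nuclease RNase L, and had few counts. Oas2 had 27 counts at 12 weeks, 63 at 8 weeks and 8 in the control. It stood 3.46-fold (interval 1.53 to 8.81) and 7.46-fold (3.56 to 18.02) above the control at 12 and 8 weeks. Oas3 had 11 counts at 12 weeks, 24 at 8 weeks and 1 in the control. The 8-week ratio of 22.7 has an interval of 3.71 to 935, since it rests on 1 control count. Oas1a had 8 counts at 12 weeks, 30 at 8 weeks and 7 in the control, so only the 8-week library was high, and it belongs to a family of similar copies. Oasl2, an oligoadenylate synthetase-like protein, was called at 8 weeks, with 4.23, 7.40 and 2.21 CPM at 12 weeks, at 8 weeks and in the control. Its neighbour Oasl1, which restrains Irf7 translation in mouse, was not, with 21 counts at 12 weeks, 29 at 8 weeks and 11 in the control. Eif2ak2, which encodes PKR, the RNA-activated kinase that halts translation, had 31.9, 39.1 and 29.0 CPM at 12 weeks, at 8 weeks and in the control. Per exon length it was the most abundant of these 9, at 6.25 RPKM at 12 weeks, 7.64 RPKM at 8 weeks and 5.66 RPKM in the control. Its 8-week level was 1.35-fold the control (interval 1.18 to 1.54).

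Among the GTPases, membrane and nucleotide effectors, Ifitm3 was called at both times and the other 5 at neither. Shares called higher over all genes were 3.11% at 12 weeks and 4.15% at 8 weeks. Ifitm3, a membrane protein that blocks the fusion of entering viruses, had 91.6 CPM in the 12-week library, 113 CPM in the 8-week library and 40.2 CPM in the control. Both treated libraries were high, 2.28-fold at 12 weeks (interval 2.06 to 2.52) and 2.82-fold at 8 weeks (2.56 to 3.11). Per exon length it was the most abundant member in every library, at 135 RPKM at 12 weeks, 167 RPKM at 8 weeks and 59.4 RPKM in the control. Bst2 (tetherin), which holds budding virions at the cell surface, came next at 35.1 RPKM at 12 weeks, 41.7 RPKM at 8 weeks and 25.5 RPKM in the control. Its level was 1.37-fold and 1.63-fold the control at 12 and 8 weeks. Rsad2 (viperin), which makes a chain-terminating nucleotide, had 5.21, 8.10 and 5.16 CPM at 12 weeks, at 8 weeks and in the control. The 8-week library alone was above the control, 1.57-fold (interval 1.16 to 2.14).

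Cmpk2, the mitochondrial nucleotide kinase beside Rsad2 on chromosome 12, had 4.30, 3.49 and 4.57 CPM at 12 weeks, at 8 weeks and in the control, and was the only member highest in the control. Its intervals spanned the control at both times, so no difference was detectable at this depth. Mx1 and Mx2 encode antiviral GTPases that many laboratory strains carry in defective form. Mx2 had 7.40, 6.63 and 6.85 CPM at 12 weeks, at 8 weeks and in the control, and Mx1 had 19 counts at 12 weeks, 18 at 8 weeks and 9 in the control. The intervals of both spanned the control in both comparisons.

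Parp14, a mono-ADP-ribosyltransferase, was called at both times. It had 42.4 CPM in the 12-week library, 42.4 CPM in the 8-week library and 16.0 CPM in the control. The 2 treated libraries were level, each 2.65-fold the control (interval 2.26 to 3.12 at 12 weeks and 2.26 to 3.11 at 8 weeks). Parp12, of the same enzyme family, had 15.6, 21.9 and 11.7 CPM at 12 weeks, at 8 weeks and in the control, with log2 ratios of 0.38 at 12 weeks and 0.85 at 8 weeks. Dtx3l, a ubiquitin ligase, and its partner Parp9 lie head to head on chromosome 16 and share 458 exon bases. Dtx3l had 73.8, 64.4 and 64.3 CPM at 12 weeks, at 8 weeks and in the control, and Parp9 had 54.5, 52.0 and 46.3 CPM at 12 weeks, at 8 weeks and in the control. The highest ratio to the control of either was 1.18, for Parp9 at 12 weeks.

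Of the 7 other induced genes, 2 were called higher at 8 weeks (4.15% of all genes) and 1 at 12 weeks (3.11%). Ifi44, a cytoplasmic protein of the interferon response, had the highest log2 ratio of the 38 at 8 weeks. It had 2.87 CPM in the 12-week library, 11.3 CPM in the 8-week library and 1.11 CPM in the control. The 8-week library stood 10.2-fold above the control (interval 6.02 to 18.7), far above the 12-week library at 2.60-fold (1.39 to 5.08). Samd9l, an antiviral protein that restrains translation and growth, had 7.93, 8.79 and 2.87 CPM at 12 weeks, at 8 weeks and in the control, and was called at both times. Lgals3bp, a secreted glycoprotein, had 35.5, 51.5 and 36.7 CPM at 12 weeks, at 8 weeks and in the control, and Ifi27 had 20.5, 27.6 and 17.2 CPM at 12 weeks, at 8 weeks and in the control. These 2 lay above the control at 8 weeks, by 1.40-fold and 1.60-fold, while both 12-week intervals reached the control. Ifi35, Rtp4 and Xaf1 (a promoter of apoptosis) had log2 ratios of 0.12, 0.22 and 0.07 at 12 weeks and 0.58, 0.61 and 0.44 at 8 weeks. Exons of Ifi35 and Rtp4 overlap predicted genes over 290 and 296 bases. In all, 11 members share exon bases with another gene, most of all Herc6 (1269 bases, with Gm45193).

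**Figure D4:**
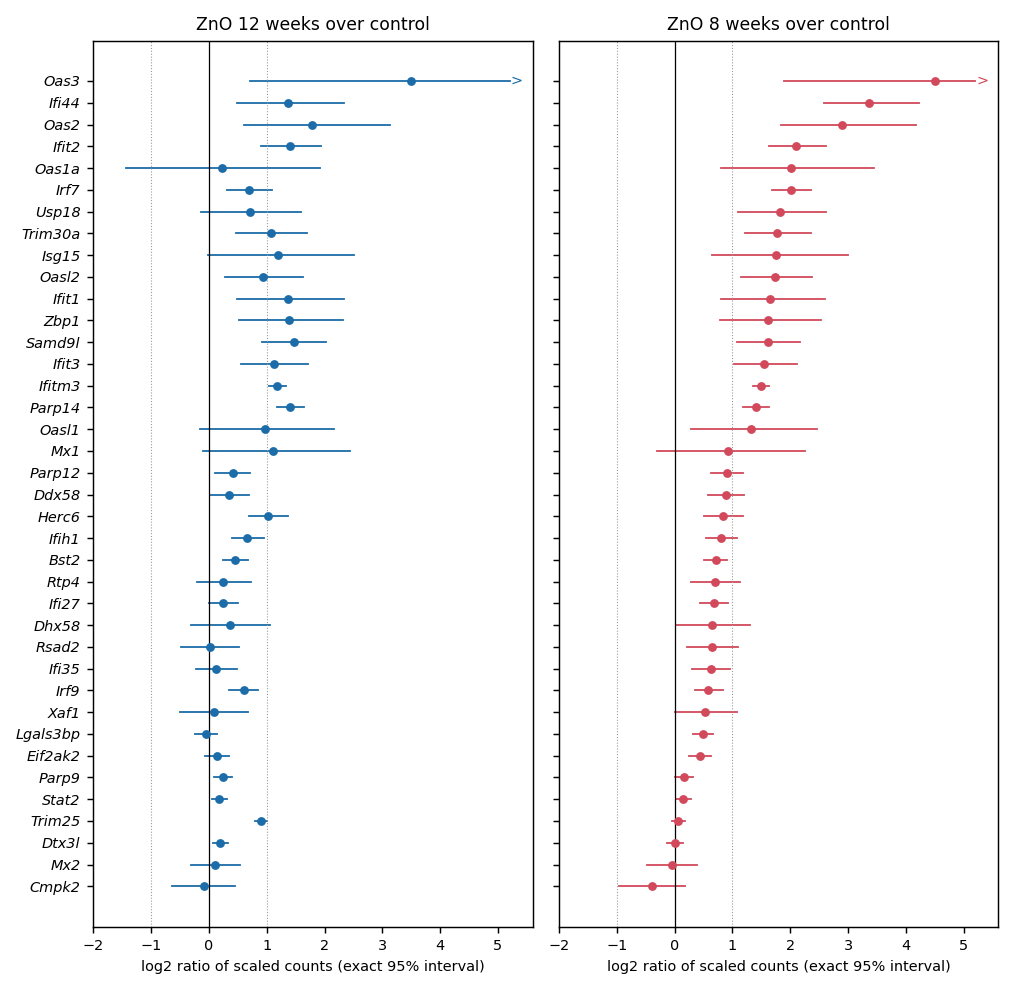
Log2 ratio of scaled counts, with nothing added, for each member at 12 weeks (left) and 8 weeks (right) over the control, with exact 95% intervals and dotted lines at 2-fold. An arrowhead marks an interval running past the axis (Oas3). The members run down by their 8-week ratio, from Oas3 to Cmpk2, and Trim25 stands out at 12 weeks with a ratio of 1.87 against 1.05 at 8 weeks.

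The third comparison set 12 weeks against 8 weeks of treatment, which uses no control. Of the 38 members, 2 (5.26%) were called lower at 12 weeks, Ifi44 and Irf7, where 1.23% of all genes were called lower. None was called higher, where 1.28% of all genes were. The median log2 ratio was -0.34 over the members and 0.00 over all genes. Ifi44 had 0.254 times its 8-week level at 12 weeks (interval 0.173 to 0.363) and Irf7 had 0.400 times (0.328 to 0.486). The count interval lay wholly below 0 for 19 members (50%; 19.2% of all genes) and wholly above 0 for 2, Trim25 and Dtx3l (5.26%; 19.0% of all genes). Next to Ifi44 and Irf7, the lowest log2 ratios were those of Oas1a (-0.95), Usp18 (-0.87) and Oas2 (-0.83). Parp14, Irf9, Stat2 and Parp9 had log2 ratios between 0.00 and 0.07, and the sign of Irf9 and Parp14 changed with the scaling of the libraries. In this comparison 10 members were above 0 (49.9% of all genes) with the scaling used, and 8 or 9 with 3 others. At 1.5-fold 1 member was higher (5.41% of all genes) and 8 were lower (4.73%), and at 3-fold 1 was lower (0.459%).

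Of the pairs of neighbouring members, 8 lie within 100 kb of each other, and their folds were set side by side with their counting intervals. The coordinates are those of mm10. The intervals of the pair overlapped for 7 of the 8 at 12 weeks and for 6 of the 8 at 8 weeks. The share over all neighbouring genes was not computed. Wide intervals at low counts overlap readily, such as that of Oas3 at 8 weeks (3.71 to 935). An overlap therefore does not show that neighbours differed from the control alike. On chromosome 19, Ifit2 (chr19:34550694-34576419, plus strand) and Ifit3 (chr19:34583531-34588731, plus strand) are 7.1 kb apart, with 8-week folds of 4.30 (interval 3.09 to 6.11) and 2.94 (2.03 to 4.33), and Ifit1, 52.1 kb on, had 3.16 (1.74 to 6.05). The pairs Oas2 and Oas3, Oasl2 and Oasl1, Dtx3l and Parp9, and Mx1 and Mx2 also overlapped at both times. The intervals of Parp14 and Dtx3l, 55.0 kb apart on chromosome 16, did not overlap at either time, with folds of 2.65 and 1.15 at 12 weeks and 2.65 and 1.00 at 8 weeks. Those of Rsad2 and Cmpk2, 12.8 kb apart on chromosome 12, did not overlap at 8 weeks, at 1.16 to 2.14 for Rsad2 and 0.515 to 1.13 for Cmpk2, and overlapped at 12 weeks.

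The genes upstream in the pathway were taken layer by layer. Of 21 interferon genes, 20 had 0 counts in every library, among them Ifnb1, Ifng and the 13 Ifna genes listed, and Ifnk had 1, 1 and 2 counts at 12 weeks, at 8 weeks and in the control. A count of 0 allows up to 3 counts, or 0.227 CPM at 12 weeks, 0.209 CPM at 8 weeks and 0.221 CPM in the control. Of 14 receptors, kinases and regulators, 12 were kept, and 0 were called at 8 weeks (4.15% of all genes higher and 2.10% lower). At 12 weeks 0 were lower (1.34% of all genes) and 1 was higher (3.11%). That was Socs3, a feedback inhibitor of cytokine receptors, with 18.3, 5.65 and 8.62 CPM at 12 weeks, at 8 weeks and in the control, and a log2 ratio of 1.53 at 12 against 8 weeks. The receptor chains Ifnar1 and Ifnar2 had log2 ratios of 0.10 and -0.43 at 12 weeks and -0.11 and -0.32 at 8 weeks. Stat3 and Jak1 had the most counts of the list over the 3 libraries, at 158 and 134 CPM at 12 weeks, 121 and 122 CPM at 8 weeks and 79.9 and 104 CPM in the control.

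Of 19 genes of sensing upstream of interferon, 18 were kept. Of these, 2 were called higher at 12 weeks (3.11% of all genes) and 3 at 8 weeks (4.15%). None was called lower (1.34% and 2.10% of all genes). Tlr7 and Tlr8, endosomal receptors for single-stranded RNA, had 24 counts at 12 weeks, 41 at 8 weeks and 6 in the control (Tlr7) and 15 counts at 12 weeks, 16 at 8 weeks and 0 in the control (Tlr8). Tlr4, the receptor for bacterial lipopolysaccharide, had 34 counts at 12 weeks, 57 at 8 weeks and 15 in the control. Tlr7 and Tlr4 were called at 8 weeks, Tlr8 at both times, and Irf8, a factor of myeloid cells, at 12 weeks (log2 ratio 1.14; 0.77 at 8 weeks). Tlr7 and Tlr8 were under 1 CPM in the control, so they entered through the treated libraries, in which they were higher. The 2 genes with the most counts, Irf2 and Mavs, had log2 ratios of 0.56 and 0.19 at 12 weeks and 0.32 and 0.12 at 8 weeks.

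Among 50 further interferon-stimulated genes outside the 38, a list also chosen with earlier results of these data known, 47 were kept. Of these, 6 were called higher at 12 weeks (3.11% of all genes) and 10 at 8 weeks (4.15% of all genes). None was called lower (1.34% and 2.10% of all genes). The log2 ratio was below 0 for 13 of the 47 at 12 weeks and for 12 at 8 weeks. Their median log2 ratio was 0.45 at 12 weeks and 0.51 at 8 weeks. The guanylate-binding protein Gbp7 had 23.3, 27.1 and 7.52 CPM at 12 weeks, at 8 weeks and in the control, and Ly6e, a surface protein that acts on virus entry, had 192, 221 and 80.8 CPM at 12 weeks, at 8 weeks and in the control. Both treated libraries were high for these 2, as for Psmb8, an immunoproteasome subunit, with 22.5, 28.1 and 10.5 CPM at 12 weeks, at 8 weeks and in the control. Gbp2, another guanylate-binding protein, was called at 12 weeks only (1.49; 0.83 at 8 weeks). The 2 with the most counts, Iigp1 and Lgals9, had log2 ratios of 0.43 and -0.56 at 12 weeks and 0.67 and -0.27 at 8 weeks.

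Markers of other cell types also differed between these libraries. Of 18 Kupffer cell and macrophage markers, 15 were called higher at 12 weeks (3.11% of all genes) and 16 at 8 weeks (4.15%). Among these 18, 0 were called lower (1.34% and 2.10% of all genes) and 0 were without counts. Their summed level was 3.10-fold the control at 12 weeks and 4.01-fold at 8 weeks, and 0.773-fold at 12 weeks against 8 weeks. The 38 members had 1.48-fold, 1.55-fold and 0.953-fold in the same order. The part of these markers in the members' ratios was not tested. Plasmacytoid dendritic cells are known as strong interferon producers. Of their 8 markers, 2 were called higher at 12 weeks (Irf8 and Ly6d) and 1 at 8 weeks (Ly6d). Siglech, a defining gene, had 46 counts at 12 weeks, 24 at 8 weeks and 38 in the control, while Klk1 had 0 counts at 8 weeks and in the control and Cd209d 0 at 8 weeks. This list summed to 15.8 CPM at 12 weeks, 11.4 CPM at 8 weeks and 8.18 CPM in the control. That is 209, 163 and 111 counts, of which Irf8, also on the sensing list, had 91, 73 and 35.

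Of 13 lymphocyte markers, 1 was called at each time, Ptprc, which all white blood cells carry, and the list summed to 21.8 CPM at 12 weeks, 22.1 CPM at 8 weeks and 11.2 CPM in the control. Ptprc made up most of this sum, and the other 12 markers had 66 counts at 12 weeks, 82 at 8 weeks and 66 in the control. Of 10 monocyte and neutrophil markers, 1 was called at 12 weeks (Itgam) and 0 at 8 weeks, and they summed to 12.3 CPM at 12 weeks, 6.42 CPM at 8 weeks and 4.64 CPM in the control, and S100a8 was at 0 at 8 weeks and in the control. Of 10 sinusoidal endothelial markers 1 was called at each time, Lyve1, and they summed to 345 CPM at 12 weeks, 404 CPM at 8 weeks and 308 CPM in the control. Of 10 stellate cell and fibroblast markers, 0 were called at 12 weeks and 1 at 8 weeks (Col3a1), and they summed to 381 CPM at 12 weeks, 374 CPM at 8 weeks and 319 CPM in the control. Over all genes kept, 3.11% were called higher at 12 weeks and 4.15% at 8 weeks. The part of these lists in the members' values was not tested.

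**Figure D5:**
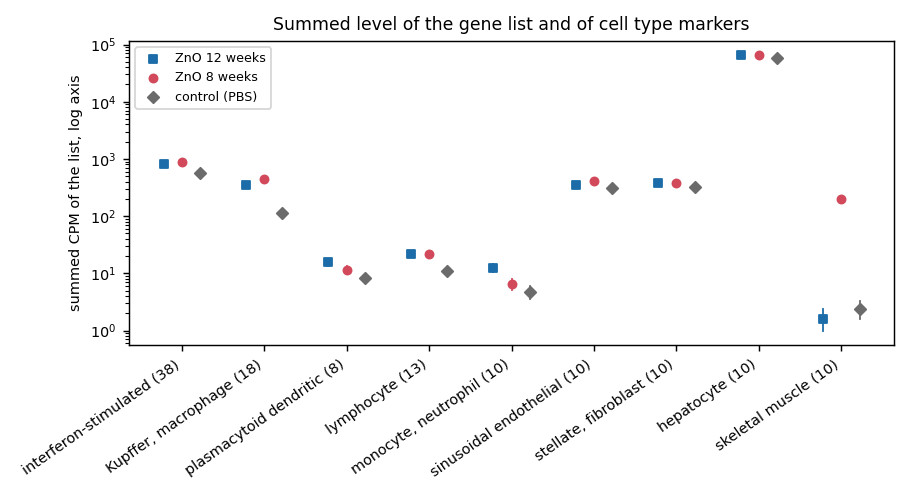
Summed level in CPM (log axis) of the 38 members and of 8 marker lists in the 12-week, 8-week and control libraries, with the number of genes in brackets and exact Poisson 95% intervals. The members span 560 to 867 CPM and the Kupffer cell markers 112 to 449 CPM, both lowest in the control, and skeletal muscle markers reach 201 CPM in the 8-week library.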

How the data were processed

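Estimated counts per gene, not normalized, were deposited for 3 libraries of total liver RNA (Trizol and an Illumina TruSeq kit, per the labels' protocols). Cufflinks 2.2.1.0 and TopHat2 2.1.0, and both mm10 and mm9, are listed in the submitters' processing notes with no role given. Positions followed mm10: 35 of the 38 members had the same start and end in the GENCODE annotation of GRCm38. Which program counted, and whether strand was used, is not given in the sources used here. Counts were rounded, and libraries were scaled by TMM in edgeR 4.0.16 (R 4.3.3). Promoter windows came from RefSeq. Calls and intervals were checked on simulated counts with counting error only, and the motif search on simulated windows with planted letters. These checks of the code hold no differences between animals, so they do not show how calls behave with them. Pseudocount, filter, threshold and scaling (among others by DESeq2 1.42.0) were each varied, and 3 alternatives were added after seeing the data. All members are named or counted. From other lists, up to 4 called genes per comparison and the 2 most abundant could be named. Members, roles and lists were chosen with earlier results of these data known. Reads copied by PCR are not independent molecules, so intervals cover counting error only.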

Additional observations from a re-analysis of the deposited data

How the results depend on the processing

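The counts of members called followed the threshold. At 1.5-fold, 24 members were higher at 8 weeks and 17 at 12 weeks (10.6% and 9.28% of all genes), and 1 was higher and 8 were lower at 12 against 8 weeks (5.41% and 4.73%). At 3-fold, 4 were higher at 8 weeks and 0 at 12 weeks (1.54% and 0.905%), and 1 was lower at 12 against 8 weeks (0.459%). With a pseudocount of 0.5 CPM, 10 were higher at 12 weeks. Leaving out the 11 members whose exons overlap another gene left 1 lower at 12 against 8 weeks, since Irf7 is among them. Under the other alternatives run, counts stayed within 1.5 times, between 10 and 16 for 8 weeks. Medians ranged from 0.69 to 0.96 at 8 weeks, from 0.38 to 0.63 at 12 weeks and from -0.37 to -0.29 between them. No called member changed sign, but this was no real check. A pseudocount, filter or threshold cannot change the sign of a ratio, and the scalings differed by far less than 2-fold. No paired analysis was possible because each group holds 1 library. Depth limits Oas1a, Oas2, Oas3, Isg15 and Mx1, whose control counts were 9 or fewer.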

Other observations

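Genes outside the 38 whose RefSeq promoter window holds a GAAA pair (GAAA, any 2 bases, GAAA) followed by CT were looked at after the values were seen. Of 36 such kept genes, 7 (19.4%) were called higher at 12 weeks and 11 (30.6%) at 8 weeks, and 0 were lower. Among the 9991 kept genes without these letters the shares called higher were 2.94% at 12 weeks and 3.79% at 8 weeks. The shares called lower there were 1.26% and 1.92%, so 0 lower of 36 says little about these genes. On no list used here were 25 of the 36, of which 4 were higher at 12 weeks and 7 at 8 weeks.

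The schlafen gene Slfn9 had 3.85, 7.33 and 0.737 CPM at 12 weeks, at 8 weeks and in the control. The chemokine Cxcl10, which draws lymphocytes, had 2.27, 1.88 and 0.295 CPM at 12 weeks, at 8 weeks and in the control, and Fcgr4, an antibody receptor of myeloid cells, had 2.57, 2.51 and 0.295 CPM at 12 weeks, at 8 weeks and in the control. These 3 were high in both treated libraries. They were under 1 CPM in the control and entered through the treated libraries, so their rise is no separate support. Gbp5, a guanylate-binding protein, had 5.29, 2.16 and 1.62 CPM at 12 weeks, at 8 weeks and in the control, and was high at 12 weeks alone. The apolipoprotein L genes Apol9a and Apol9b had 9.59, 38.8 and 7.81 CPM at 12 weeks, at 8 weeks and in the control (Apol9a) and 22.4, 53.2 and 17.6 CPM at 12 weeks, at 8 weeks and in the control (Apol9b). The class I gene H2-T22 had 14.3, 49.4 and 13.4 CPM at 12 weeks, at 8 weeks and in the control. The predicted gene Gm5524 had 15.9, 28.8 and 12.7 CPM at 12 weeks, at 8 weeks and in the control. These 4 were high in the 8-week library alone. The Apol9 genes and H2-T22 belong to families of near-identical copies, so their single values are uncertain.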
